A study of Schizosaccharomyces pombe with 4 samples.

Results

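The mRNAs pho1 and pho84 of fission yeast (Schizosaccharomyces pombe) were examined in a CRAC experiment, which uses UV light to cross-link RNA to protein in living cells, pulls down a tagged protein and sequences the attached RNA as cDNA. The tagged protein was Mkt1, a post-transcriptional regulator. The cDNAs were those that the deposited data name for pho1 or pho84 alone and that lie on the strand of the gene, which gave 60 of the 61252 distinct cDNAs in all 4 libraries, 46 of them from pho1 and 14 from pho84. No cDNA named either gene together with another one. A distinct cDNA is one that differs from the others in its ends or its deletions, so that exact repeats are, with few exceptions, not counted again. Near-identical cDNAs were counted separately, and whether they came from different molecules was not tested.

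There were 2 libraries from h+ cells carrying mkt1-HTP-KanR (Mkt1-HTP, in which the tag joins histidines, a protease site and protein A parts) and 2 from the h+ parental strain with no tag, which gives the background of the purification. All of these cells also carried otr1R(Sph1):ade6+, a reporter in a centromere, with ade6-210, leu1-32 and ura4D18, and all were grown at 32 °C to exponential phase in PMG medium lacking tryptophan and irradiated for 42.5 s. Mkt1-HTP replicates 1 and 2 gave 24468 and 26899 distinct cDNAs (11865 and 11252 of them from mRNAs), and control replicates 1 and 2 gave 1743 and 8142 (157 and 472 from mRNAs). No library held a cDNA of mkt1 itself, so the tag could not be checked here.

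Both genes serve the uptake of inorganic phosphate. pho1 encodes a secreted acid phosphatase, which frees phosphate from organic compounds at the cell surface, and pho84 encodes a transporter that carries phosphate across the plasma membrane. Fission yeast makes both when phosphate is scarce, through the transcription factor Pho7. When phosphate is plentiful they are held down by transcription of the long non-coding RNAs prt2 and prt, which start upstream of pho84 and of pho1 on the same strand and run towards the coding genes.

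The 2 genes are neighbours on the plus strand of chromosome II. pho84 (SPBC8E4.01c) lies at chrII:4444101-4446200 and pho1 (SPBP4G3.02) at chrII:4447506-4449053, each with 1 exon in the RefSeq annotation. The pho84 mRNA is 2100 nt long, with 151 nt of 5′ UTR and 230 nt of 3′ UTR, and the pho1 mRNA is 1548 nt long, with 51 nt and 135 nt. prt2 (chrII:4442542-4445970) and prt (named nc-pho1 in the annotation, chrII:4446359-4448918) are annotated up to the last coding base of pho84 and of pho1.

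pho1 was recovered with Mkt1 in both replicates and pho84 mainly in 1, and neither was seen without the tag. pho1 had 32 and 14 cDNAs in the Mkt1-HTP libraries and 0 in each control library. In CPM, the number of cDNAs per 1000000 distinct cDNAs of the library, these were 1308 and 520 with the tag, against 0 and 0 without it. pho84 had 13 and 1 cDNAs in Mkt1-HTP, or 531 and 37.2 CPM, against 0 and 0 in the control. For both mRNAs the Mkt1-HTP values lay above both control values, but this also held for 55.6% of the 428 genes tested and for 60.3% of the 307 mRNAs among them.

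pho1 averaged 914 ± 557 CPM in Mkt1-HTP (SD, n = 2). As a share of all distinct cDNAs, this was at least 3.01-fold higher than a control of 3 counts over the group (303 CPM). The control libraries differ in depth, and this bound was 2.48 without control replicate 1, while without control replicate 2 the floor exceeded the mean and no fold can be given. It was 1.71 without Mkt1-HTP replicate 1 and 4.31 without replicate 2. These bounds cover counting error only and take each cDNA as independent. As a share of mRNA cDNAs alone no bound can be given for pho1. On that scale 0.423 and 0.587 of its cDNAs would have fallen in control replicates 1 and 2, under the 3 counts of the floor. pho84 averaged 284 ± 349 CPM (SD, n = 2), which is under the same floor, so that no bound on its fold can be given. Fitted log2 fold changes of either mRNA depend on the prior count of the fit and are not bounds.

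Neither mRNA passed the edgeR quasi-likelihood test after Benjamini-Hochberg adjustment (0 of 2), in which 2.8% of the 428 genes were called higher with the tag and 1.64% higher without it. With the replicate number as a block, 4 genes in place of 12 were called higher and 2 in place of 7 were called lower. pho1 had an edgeR p of 0.018 before adjustment and an edgeR adjusted p of 0.24, and pho84 had an edgeR p of 0.22 and an edgeR adjusted p of 0.50. Without control replicate 1, pho1 gained a call (edgeR adjusted p = 0.030), in a fit that called 29 genes higher and assumes that the lone control library varies like the Mkt1-HTP pair. Over all 15 alternatives the adjusted p of pho1 ran from 0.030 to 0.77.

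The depth of the control limits what these zeros show. A count of 0 allows a share of up to 0.172% in control replicate 1 and up to 0.0368% in control replicate 2, against measured shares of pho1 of 0.131% (Wilson 95% interval 0.0927 to 0.185) and 0.0520% (0.0310 to 0.0874) in Mkt1-HTP. These limits and intervals cover counting error only. At the shares of the equally numbered Mkt1-HTP libraries, 2.28 and 4.24 cDNAs of pho1 and 0.926 and 0.303 cDNAs of pho84 would have fallen in the control libraries. The control held few mRNA cDNAs of any kind, and of the 289 mRNAs with 10 or more Mkt1-HTP cDNAs 78.5% had none there. At the shares that pho1 took of mRNA cDNAs alone, 0.423 and 0.587 cDNAs would have fallen there, so that whether pho1 stands out from other mRNAs could not be detected at this depth. How abundant the mRNAs were in the cells was not measured in these libraries.

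By mean CPM in Mkt1-HTP, pho1 ranked 29th and pho84 173rd of the 1700 mRNAs with a cDNA in either Mkt1-HTP library. Scaled per length, pho1 had 1.74 and 0.804 cDNAs per 1000 mRNA cDNAs and kb of mRNA in Mkt1-HTP, and pho84 had 0.522 and 0.0423. pho1 was thus the higher of the pair on this scale in each Mkt1-HTP library, and the difference between them was not tested. The CPM of pho1 in replicate 1 was 2.51 times that in replicate 2, and that of pho84 was 14.3 times. On log2(CPM + 50), the gap between the Mkt1-HTP libraries was 1.25 for pho1, as large or larger in 149 of 287 other mRNAs with 10 or more Mkt1-HTP cDNAs, and 2.74 for pho84, as large or larger in 83 of them.

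**Figure D1:**
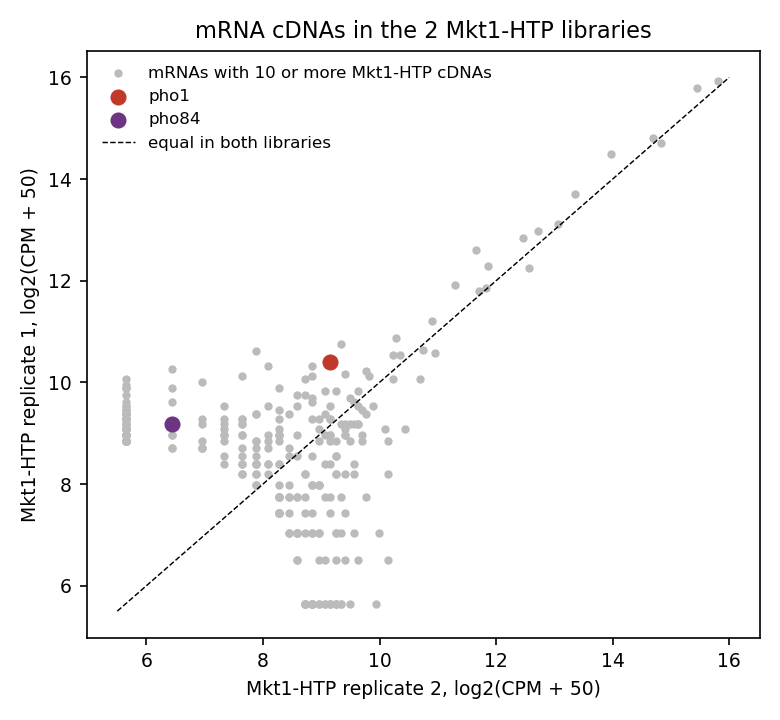
Each point is 1 mRNA with 10 or more Mkt1-HTP cDNAs, with log2(CPM + 50) in Mkt1-HTP replicate 2 on the x axis and in replicate 1 on the y axis, and the dashed line marks equal values. pho1 and pho84 both lie above the line, by 1.25 and 2.74.

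The cDNAs of pho1 lay towards the 3′ end of the mRNA. In Mkt1-HTP replicate 1 they began at nt 808 of the 1548 nt, and in replicate 2 at nt 1367. They formed 6 clusters of overlapping cDNAs. The 4 upstream clusters, from nt 808 to nt 1243 in the coding sequence, held 1, 2, 2 and 9 cDNAs in Mkt1-HTP replicate 1 and none in replicate 2. The fifth cluster, from nt 1338 to nt 1403 before the stop codon, held 5 cDNAs in replicate 1 and 5 in replicate 2. In replicate 1, 4 of these lay from nt 1338 to nt 1373 and 1 from nt 1362 to nt 1403. The 5 of replicate 2 lay from nt 1367 to nt 1403. The sixth cluster, from nt 1452 up to 1 nt past the annotated end of the gene, held 13 and 9. The parts of pho1 covered in both Mkt1-HTP libraries therefore lay within the last coding stretch and the 3′ UTR. The base range with the most cDNAs, chrII:4449013-4449015, was covered by 21 of the 46.

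Near-identical cDNAs made up much of these counts. Grouped into stacks, sets of cDNAs of 1 library in which each start and end lies within 5 nt of that of another cDNA of the set, the 32 and 14 cDNAs of pho1 in Mkt1-HTP fell into 13 and 3 stacks. The tallest held 9 cDNAs, in Mkt1-HTP replicate 1, which started within chrII:4449011-4449013 and ended within chrII:4449048-4449054, at the annotated end of the gene. In the same library 8 cDNAs started at position 4448592 and ran for up to 157 nt. In replicate 2 the 3 stacks held 5, 4 and 5 cDNAs. No interval of pho1 was the same in both libraries, and 2 of the 14 cDNAs of replicate 2 lay within 5 nt of a cDNA of replicate 1 at both ends. Stacks per cDNA came to 0.35 for pho1 and 0.36 for pho84, against a median of 0.3 over the 287 others.

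**Figure D2:**
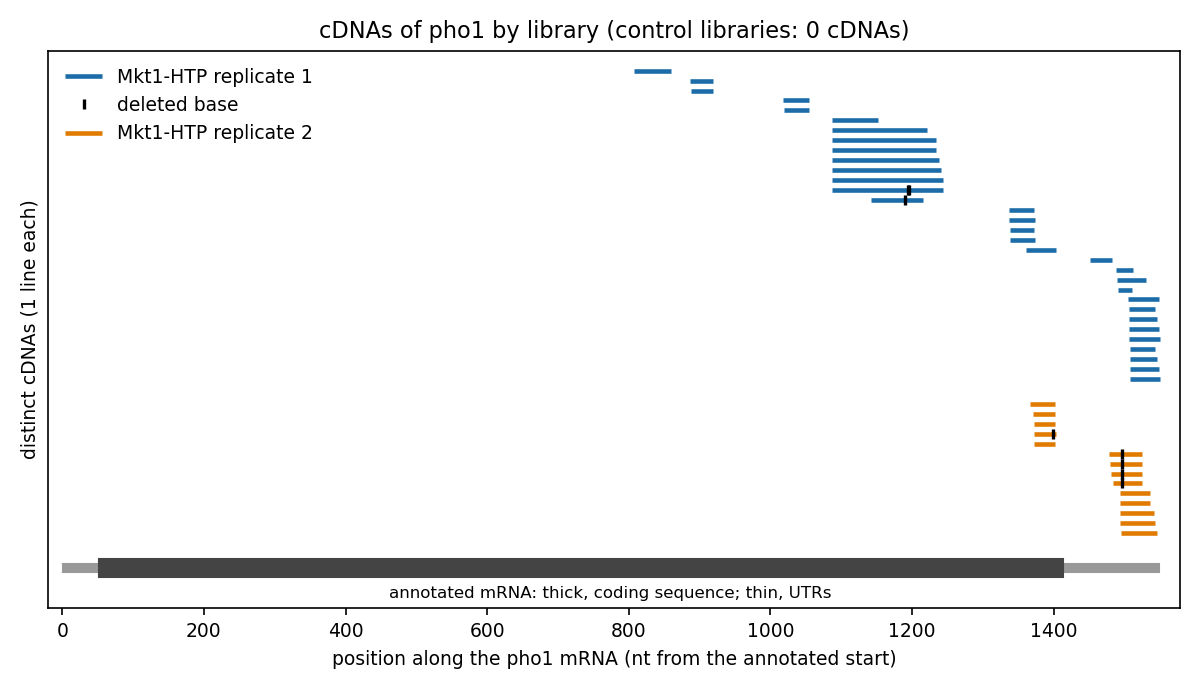
Each line is 1 distinct cDNA of pho1 along its mRNA (x axis, nt from the annotated start) in Mkt1-HTP replicate 1 or 2, black marks are deleted bases, and the bar below is the annotated mRNA with its coding sequence thick. The 14 cDNAs of replicate 2 lie in the fifth and sixth clusters, where 18 of the 32 of replicate 1 lie as well.

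In the 3′ UTR of pho1, 13 of 32 cDNAs had their middle in Mkt1-HTP replicate 1 (40.6%, Wilson 95% interval 25.5 to 57.7) and 9 of 14 in replicate 2 (64.3%, 38.8 to 83.7). Over all mRNA cDNAs 69.8% and 69.6% lay in the 3′ UTR with the tag, against 52.9% and 25.6% without it. Taken mRNA by mRNA, the median share was 41.7% over 281 other mRNAs with a 3′ UTR and 10 or more Mkt1-HTP cDNAs, and pho1, at 47.8% (34.1 to 61.9) over both libraries, had a higher share than 155 of them and a lower one than 126. In the last 20% of the mRNA, 18 of 32 and 14 of 14 cDNAs of pho1 had their middle. This share was not counted for the other mRNAs, so whether it is particular to pho1 was not tested. With each stack counted once, 4 of 13 and 2 of 3 lay in the 3′ UTR, or 37.5% of both together. The intervals above take each cDNA as independent, which cDNAs of a stack are not, so they are too narrow.

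Deletions, which can arise where the reverse transcriptase skips a cross-linked base, lay at different bases of pho1 in each library, not all of which the other library covered. They were found in 2 of 32 cDNAs in Mkt1-HTP replicate 1 (6.25%, Wilson 95% interval 1.73 to 20.1) and in 5 of 14 in replicate 2 (35.7%, 16.3 to 61.2), against 13.5% and 24.9% of all mRNA cDNAs in these libraries and 3.82% and 23.1% in untagged cells. Over both Mkt1-HTP libraries 15.2% of pho1 cDNAs had a deletion, against a median of 13.9% over 287 other mRNAs with 10 or more Mkt1-HTP cDNAs. The base deleted most often was a U at position 4449001 in the 3′ UTR, 83 nt past the stop codon, with 52 nt left to the annotated end. Of the 9 cDNAs over this base in Mkt1-HTP replicate 2 it was missing from 4, and of the 3 in replicate 1 from 0. These 4 cDNAs form 1 stack, which starts within chrII:4448984-4448989 and ends at position 4449029, and the 5 cDNAs of the neighbouring stack, which start at position 4448999 or 4449000 and cover the same base, have no deletion. The site is shown as the only one deleted in more than 1 cDNA, with the deleted base in capitals. It is read along the mRNA in DNA letters from the RefSeq genome ASM294v3. The ASM294v2 positions of the data were checked against it only by overlap with the named genes, which would miss a shift of a few nt. The deleted base is the first of 3 U, and which of these was lost cannot be told.
pho1 3′ UTR, chrII:4448987-4449016, plus strand: ccactcttctatcaTttactttgcaacgtt
Of these 30 bases 43.3% are U, and of the 135 nt of the 3′ UTR 45.9% are, against a median of 37.0% in the last 135 nt of 5113 annotated mRNAs.

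The other deletions of pho1 were in the coding sequence, each in 1 cDNA. In Mkt1-HTP replicate 1 a U at position 4448695 was missing from 1 cDNA and 2 C at positions 4448699 and 4448700 from another, of 8 cDNAs that cover them. Replicate 2 had 0 cDNAs over these bases. In replicate 2 a G at position 4448904, 14 nt before the last base of the stop codon, was missing from 1 of 5. Replicate 1 had 1 cDNA over this G, without the deletion. Both sites are shown because they carry all deletions of pho1 outside its 3′ UTR, with the deleted bases in capitals and, in the second, the stop codon too.
pho1 coding sequence, chrII:4448683-4448712, plus strand: tgattactgagcTtttCCaatgtgaagatt
pho1 end of coding sequence, chrII:4448889-4448918, plus strand: agtgctgtggctgctGtttatccttatTAA
Over all mRNA cDNAs U made up 51.5% and 55.0% of deleted bases in Mkt1-HTP, against 75.0% of 8 and 45.3% of 201 deleted bases in untagged cells.

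None of the cDNAs of pho84 had its middle in the 3′ UTR. All 13 cDNAs in Mkt1-HTP replicate 1 and the single one in replicate 2 had it in the coding sequence. If the cDNAs were independent, 0 of 14 would allow a share of up to 21.4% in the 3′ UTR. Those of a stack are not, so this limit is too low. The 3′ UTR was touched by 3 of the 13 in replicate 1. The difference from pho1 was not tested, since cDNAs of a stack are not independent and pho84 had 4 stacks and 1. Of the 281 other mRNAs, 67 likewise had no cDNA in the 3′ UTR and 214 had a higher share.

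The cDNAs of pho84 formed 4 clusters. The first, from nt 878 to nt 949, held 5 cDNAs in Mkt1-HTP replicate 1 and the 1 of replicate 2, which overlapped but did not share an end with the others. The second held 1 cDNA, from nt 1456 to nt 1479, the third 4, from nt 1572 to nt 1619, and the fourth 3, from nt 1840 to nt 1873, all in replicate 1. The cDNAs of replicate 1 in each cluster were a single stack. No cDNA of pho84 had a deletion, in 0 of 13 and 0 of 1, which was also so for 72 of 287 other mRNAs. The core of the first cluster is shown as the only part of pho84 found in both Mkt1-HTP libraries, with the bases that all 6 cDNAs share in capitals.
pho84 coding sequence, chrII:4444991-4445020, plus strand: gTGTTCTTATTCCCCGTCTCATCATGAAAg
The fourth cluster crossed the stop codon and ended 3 nt into the 3′ UTR. Its site is shown up to the stop codon, in capitals, as the counterpart of the end of the pho1 coding sequence, where cDNAs were found in both Mkt1-HTP libraries.
pho84 end of coding sequence, chrII:4445941-4445970, plus strand: aagagctggtattttaatggaatctttTAA
The sequence AATAAA, searched on the mRNA strand, occurred 2 times in the 3′ UTR of pho84, 70 and 21 nt before the annotated end, and not in that of pho1. It was found in 35.0% of the last 230 nt and 28.9% of the last 135 nt of 5113 mRNAs. TGTANATA, the Pumilio-type motif, was in neither 3′ UTR and in 6.26% and 4.58% of those windows.

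**Figure D3:**
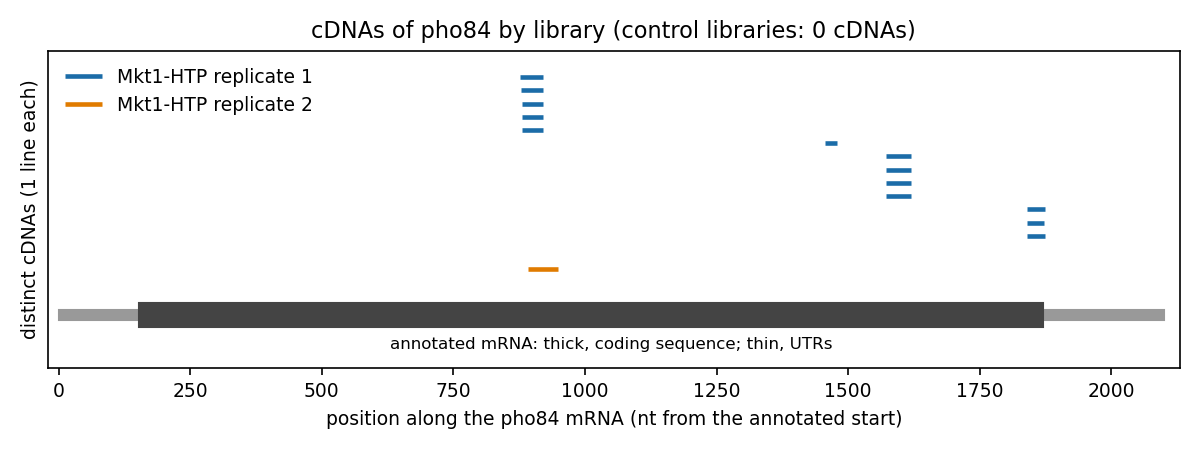
Each line is 1 distinct cDNA of pho84 along its mRNA (x axis, nt from the annotated start), with the annotated mRNA as a bar below. The 13 cDNAs of Mkt1-HTP replicate 1 form 4 clusters in the coding sequence, and the 1 cDNA of replicate 2 lies in the first of them.

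**Figure D4:**
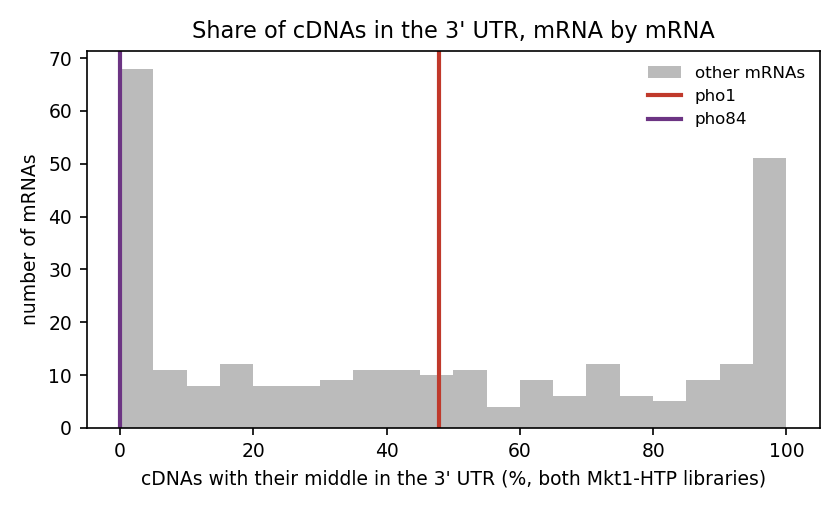
Histogram of the share of Mkt1-HTP cDNAs with their middle in the 3′ UTR (x axis, %) over 281 other mRNAs with 10 or more such cDNAs (y axis, number of mRNAs), with vertical lines for pho1 and pho84. pho1 lies at 47.8% and pho84 at 0, where 67 other mRNAs lie.

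The non-coding RNAs of the locus were not seen apart from the mRNAs. In the 1559 nt of prt2 upstream of pho84 and the 1147 nt of prt upstream of pho1 there were 0 cDNAs in each of the 4 libraries, and there were none in the 158 nt between pho84 and prt. On the opposite strand, from the start of prt2 to the next protein-coding gene, fub2, there were 0 as well, and the neighbouring genes ecl3 and fub2 had 0 in each library. In Mkt1-HTP, 3 counts would be 0.0123% and 0.0112% of a library, the share that such a 0 allows. Where prt2 and prt overlap the coding genes on the same strand, a cDNA could come from either RNA. All 14 cDNAs of pho84 overlap prt2, while 13 of 32 and 9 of 14 cDNAs of pho1 lie past the annotated end of prt and overlap no other annotated gene on the strand. Counted from these alone, pho1 had an edgeR adjusted p of 0.39, and pho84 had no cDNA left to test.

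Other mRNAs of phosphate metabolism had between 0 and 17 Mkt1-HTP cDNAs. With 2.8% of all 428 genes called higher, a list with 1 to 3 tested members would mostly show no call, so the counts of calls below say nothing about the lists. Over all mRNAs, 1700 had a cDNA in either Mkt1-HTP library, and the motif search covered 5113 annotated ones. Of the acquisition list, 5 of 6 genes had a cDNA and 0 of 3 tested passed in edgeR. These genes held 54 and 25 cDNAs in the Mkt1-HTP libraries, 45 and 15 of them from pho1 and pho84, and 0 in each control library. Beside pho1 and pho84 these were pho4 (SPBC428.03c), which encodes a further acid phosphatase, controlled by thiamine, with 7 and 4 cDNAs, tgp1 (SPBC1271.09), a transporter of glycerophosphodiesters, with 0 and 6, and pho842 (SPAC23D3.12), a phosphate transporter, with 2 and 0. The 6 cDNAs of tgp1 formed 1 stack. The median fitted log2 fold change of the 3 tested was 5.16, beside 4.75 over all 428 genes, of which 254 had no control cDNA and so take a fold that depends on the prior count.

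Of the genes that store or export phosphate, 5 of 7 were matched by symbol, 3 had a cDNA and 0 of 1 tested passed (log2 fold change 5.44). pqr1 (SPAC6B12.07c), a ubiquitin ligase of phosphate homeostasis, had 17 cDNAs in replicate 1 and 0 in replicate 2 of Mkt1-HTP, and 0 without the tag (edgeR adjusted p = 0.47). All 17 lay in its 3′ UTR, but they formed only 2 stacks. vtc4 (SPCC1322.14c), of the polyphosphate polymerase, had 0 and 7 in Mkt1-HTP, against 0 and 2 in untagged cells. vtc2 (SPAC14C4.11), of the same complex, had 6 and 2 in Mkt1-HTP and 0 in each control library. Of 6 regulators 2 had a cDNA, with 0 of 1 tested passing (log2 fold change 5.26). pho7 (SPBC27B12.11c), the transcription factor of both genes, had 2 and 4 cDNAs in Mkt1-HTP, and kcs1 (SPCC970.08), an inositol phosphate kinase, 15 and 0 (edgeR adjusted p = 0.49), with none of either in untagged cells. Only pho1, pho84, pho4, vtc2 and pho7 of these lists were thus seen in both Mkt1-HTP libraries.

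**Figure D5:**
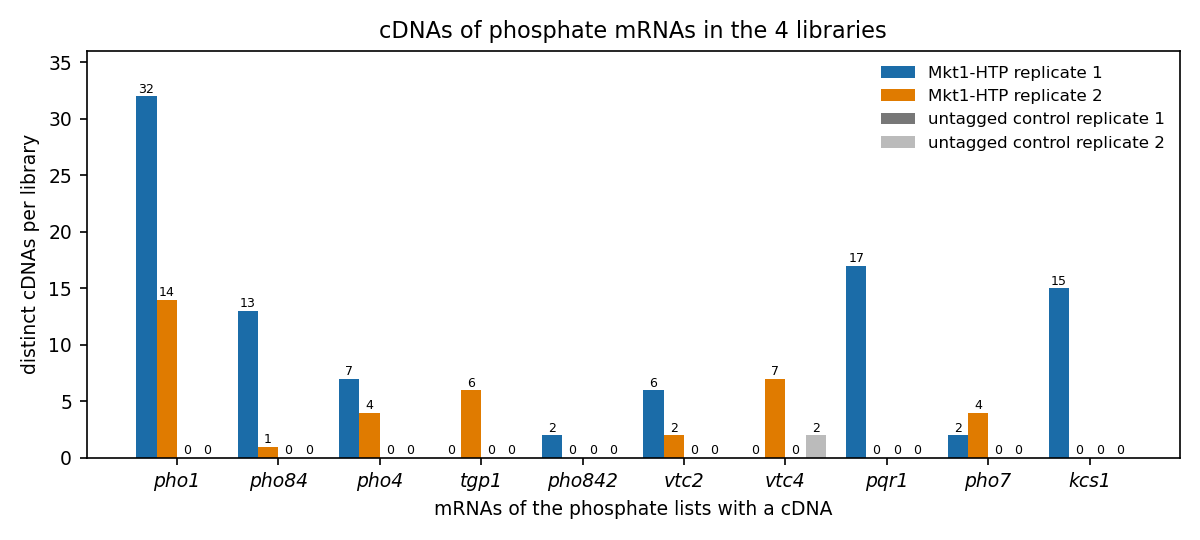
Bars show distinct cDNAs (y axis) of each mRNA of the phosphate lists that had any, in Mkt1-HTP replicates 1 and 2 and in control replicates 1 and 2. pho1 is the tallest in both Mkt1-HTP libraries, with 32 and 14, and the control has 2 cDNAs of vtc4 and 0 of the others.

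Factors that act on the upstream non-coding RNAs were a list of 11 genes, of which 5 had a cDNA and 0 of 1 tested passed (log2 fold change 5.79). swd22 (SPAC824.04), a subunit of the cleavage and polyadenylation factor, had 8 and 15 cDNAs in Mkt1-HTP, 20 of the 23 in its 3′ UTR, and 0 without the tag (edgeR adjusted p = 0.38). dis2 (SPBC776.02c), a protein phosphatase of the same complex, had 1 and 2, red1 (SPAC1006.03c), which directs RNA to nuclear decay, 0 and 2 and dhp1 (SPAC26A3.12c), an exonuclease, 1 and 0, while seb1 (SPAC222.09), a termination factor, had 0 with the tag, and 0 and 2 without it; it lies outside the rule for named genes and was chosen after its values were seen.

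By counts in the 4 libraries, the mRNAs nearest to pho1 were fhn1 (SPBC1685.13), gpm1 (SPAC26F1.06), which encodes phosphoglycerate mutase, and ecm33 (SPAC1705.03c), a cell wall protein. Their Euclidean distances from pho1 in log2(CPM + 50) over the 4 libraries were 0.39, 0.55 and 0.59, among 760 mRNAs with 5 or more cDNAs. fhn1 had 41 and 16 cDNAs in Mkt1-HTP, gpm1 25 and 10 and ecm33 21 and 15, and each had 0 in both control libraries. Their shares in the 3′ UTR, at 75.4%, 88.6% and 100% of the Mkt1-HTP cDNAs, were above the 47.8% of pho1. Nearest to pho84 were rhp18 (SPBC1734.06), a ubiquitin ligase of DNA repair, with the same 13 and 1 cDNAs and so a distance of 0, and mae1 (SPAPB8E5.03), a malate transporter, and tda1 (SPBC1677.03c), each with 11 and 1 and at a distance of 0.22. Against 0 of 14 in pho84, the 3′ UTR held 0 of 14 in rhp18, 9 of 12 in mae1 and 2 of 12 in tda1. The 14 cDNAs of pho84 formed 5 stacks and the 12 of mae1 formed 3, and cDNAs of a stack are not independent.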

How the data were processed

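Upstream steps are given in the methods, the labels and the file headers. The authors split reads by barcode and dropped PCR duplicates (pyCRAC), trimmed adapters (Flexbar), filtered tRNA reads (STAR 2.7.1a), aligned the rest to ASM294v2 (Novoalign 3.09.02) and ran pyReadCounters (Counters version 1.4.4). The deposited counts list 1 distinct cDNA a line, each with the value 1.

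Sample titles give the group and the number of each replicate; other labels differ on which adapters belong to number 1, though not on which libraries share one. Each cDNA was assigned by strand to the RefSeq gene it overlaps (ASM294v3), and to the mRNA where an mRNA and a long non-coding RNA overlap. Other cDNAs that overlap more than 1 gene were not tested. Of 2552 gene identifiers in the data 98.0% were found there, and 98.7% of named pairs overlapped. The 428 genes with 10 or more cDNAs over the 4 libraries were tested two-sided for the effect of the tag with edgeR 4.0.16 in R 4.3.3 (glmQLFit, glmQLFTest, no other term, library size the distinct cDNAs, common dispersion 0.931), at an adjusted p of 0.05. Alternatives were DESeq2 1.42.0, other library sizes, minimums and assignments, the replicate block, stacks counted once and each library left out. Wilson intervals at 95% came from Python 3.11.15. Like the limits from a count of 0, they take each cDNA as independent and are too narrow where cDNAs form stacks.

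Every edgeR and DESeq2 p-value rests on the spread between 2 libraries per group, pooled over genes, and no source says more of how the replicates were grown than that they are biological. For 2 against 2 libraries, 0.333 is the smallest two-sided p of an exact permutation test. In simulated counts for the 428 genes of this comparison at a dispersion of 0.9, edgeR called 2 of the 47 tested genes that were raised 16-fold, 17 of 51 raised 64-fold and 0 of 138 unchanged ones. At 0.1 these were 48 of 48, 51 of 51 and 1 of 168. Genes under the minimum in the simulated counts were not tested, and genes raised 4-fold or lowered were simulated as well. Simulated control counts were drawn around the mean share of each gene over all 4 libraries. For genes with no control cDNA, such as pho1 and pho84, that mean lies above the control, and these rates do not give their recovery. Replicates of a group differed beyond sampling noise, with a chi-square of 7.47 (Mkt1-HTP) and 8.93 (control) for each degree of freedom.

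Libraries of the same number share a sequencing index in the labels, which pairs them. Their deviations from the group means had a correlation of 0.0581 over 428 genes and of -0.0959 over 27 genes with 10 or more control cDNAs (across genes, which are not independent), and the replicate block was an alternative.

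The 2 mRNAs and the gene lists were chosen with earlier results of these data known. Named were pho1, pho84 and mkt1, every phosphate gene with a cDNA, up to 4 genes of each other list by mean CPM in Mkt1-HTP, the 3 mRNAs nearest to each member and the neighbouring genes. seb1 and psu1 lie outside the rule. Genes listed as vtc1, xpr1 and can1 were not matched by symbol.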

Additional observations from a re-analysis of the deposited data

How the results depend on the processing

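Neither mRNA had a control cDNA, so no alternative could turn the direction, and the fitted log2 fold changes depend on the prior count and are no bounds. They were 4.06 to 7.19 for pho1 over 15 alternatives and 2.37 to 5.63 for pho84 over the 12 where it could be tested. No alternative gave pho84 a call (lowest adjusted p 0.19), and pho1 gained one only without control replicate 1 (edgeR adjusted p = 0.030; its fold change ran from 5.70 to 7.19 with 1 library left out). With the replicate block the adjusted p was 0.57 for both, with log2 fold changes of 6.36 and 4.03. DESeq2 gave 0.45 for pho1 and none for pho84. With stacks counted once pho1 had 0.16, and pho84, with 5 stacks, was under the minimum of 10, as it was without Mkt1-HTP replicate 1. With exactly 1 annotated gene per cDNA it had none left.

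Of all genes, 12 were called higher with the tag and 7 without it. The first count was 0 with mRNA cDNAs as library size, 0 with the mapped cDNAs of the headers, 4 with the replicate block, and 0 to 29 with 1 library left out. The second was 4 with TMM factors, 1 in DESeq2, 2 with a minimum of 1 cDNA, 2 with the replicate block, 0 with the mapped cDNAs of the headers, and 3 to 6 with 1 library left out. The settings did not test the same genes, so these counts are not directly comparable. DESeq2 gave an adjusted p to 129 genes, while 2094 were tested with a minimum of 1 cDNA and 126 with stacks counted once. The share called higher with the tag was 7.75%, 0.478% and 8.73% in these, beside 2.8% of 428. The cause of these changes was not tested. The header totals and the assignment to exactly 1 gene were chosen after seeing the data. The share of pho1 cDNAs in the 3′ UTR, 47.8%, was 40.6% to 64.3% with 1 library left out and 69.6% when the last 20% of the mRNA was taken instead. That of pho84, 0, was 21.4% when any overlap with the 3′ UTR was counted. With 46 and 14 cDNAs in all, these shares are imprecise.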

Other observations

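Other mRNAs of the cell surface, listed as nutrient transporters and as secreted or surface enzymes, were counted in the same way. With 2.8% of all 428 genes called higher, the 0 of 5 and 0 of 6 tested that passed below say nothing about these lists. Of 26 matched transporters 12 had a cDNA, with 73 and 72 in the Mkt1-HTP libraries and 0 in each control library, and 0 of 5 tested passed in edgeR (median log2 fold change 5.41, beside 4.75 over all 428 genes). With no control cDNA, the fitted folds of the transporters depend on the prior count. The most abundant was pma1 (SPAC1071.10c), the proton pump of the plasma membrane, with 25 and 31 cDNAs, 10 of the 56 in its 3′ UTR (edgeR adjusted p = 0.18). bsu1 (SPAC17A2.01), a vitamin transporter, had 11 and 9, zrt1 (SPBC16D10.06), a zinc transporter, 13 and 4, and mae1 11 and 1. Of 21 secreted or surface enzymes 14 had a cDNA, with 77 and 51 in the Mkt1-HTP libraries, against 0 and 5 without the tag, and 0 of 6 tested passed (median 4.93). They were led by plb1 (SPAC1A6.04c), a phospholipase, with 17 and 9 cDNAs, 19 of the 26 in its 3′ UTR, gas1 (SPAC19B12.02c), which remodels cell wall glucan, with 10 and 14, exg1 (SPBC1105.05), a glucanase, with 10 and 3, and eng1 (SPAC821.09), a glucanase of cell separation, with 11 and 0. The 11 cDNAs of eng1 formed 2 stacks. The 5 control cDNAs were all of psu1 (SPAC1002.13c), which had 3 and 7 in Mkt1-HTP and was named after its values were seen.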
